A study of Canis lupus familiaris with 29 samples.

Results

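The genes described here code for ion channels that admit calcium or sodium into a cell or release calcium from its stores. They were taken by name from the deposited gene table, as every gene whose symbol is that of a pore-forming or accessory subunit of the voltage-gated calcium channels (CACNA, CACNB, CACNG and the CACNA2D series), a voltage-gated sodium channel subunit (SCN), an acid-sensing channel (ASIC), a hyperpolarization-activated channel (HCN), a transient receptor potential channel of the A, C, M or V series (TRPA, TRPC, TRPM, TRPV), a ryanodine receptor (RYR) or an inositol trisphosphate receptor (ITPR). The pattern found 76 of the 30951 genes in the table, and 75 of them had a count in at least 1 sample. TRPC4AP and TRPC5OS match it by name but are not channels, and TRPC2, TRPM2 and CACNA2D4 were not found under these names.

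Chromaffin cells of the adrenal medulla are electrically excitable and release catecholamines when calcium enters through voltage-gated channels. Sodium channels carry the upstroke of their action potentials, low-voltage-activated T-type calcium channels and HCN channels act near the resting potential, and high-voltage-activated L-, N- and P/Q-type channels bring in the calcium that sets off secretion. Ryanodine and inositol trisphosphate receptors release calcium from the endoplasmic reticulum, while acid-sensing and TRP channels open to protons, lipids, temperature, stretch or second messengers.

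Pheochromocytomas and paragangliomas (PPGLs) are tumors of chromaffin cells, inside the adrenal medulla and outside it, and RNA was sequenced from 19 such tumors of dogs and from 10 normal adrenal medullas (NAMs). The authors had left out 2 further PPGLs that were outliers on a principal component plot. The NAMs were snap-frozen medulla tissue of healthy research dogs that had not been killed for this study. Privately owned dogs seen at Utrecht and other clinics gave the PPGLs, some sampled during surgery and others after death. Preservation also varied among the tumors, between snap-freezing and RNAlater. Source, collection and diagnosis therefore differ together between PPGLs and NAMs and cannot be told apart. The authors drew 2 groups of PPGLs, 7 tumors in group 1 and 12 in group 2, from a principal component plot of these same samples, so p-values between the groups describe that split. Every sample is from a different dog, and samples are named here by group and replicate number.

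Totals per sample lay between 19258054 and 35918182 counts in NAMs, between 18493540 and 31919833 in group 1 and between 18208718 and 24569667 in group 2. A gene with 3 counts, taken as the floor of detection, stood at 0.0835 to 0.156 CPM, the count scaled to library size, in NAMs, 0.0940 to 0.162 in group 1 and 0.122 to 0.165 in group 2; such floors cover counting error only. Levels are given as CPM after TMM normalization, a scaling of each library for its composition. Differences are given as log2 fold changes (log2 FC) with their standard error (SE) from the quasi-likelihood F test of edgeR, with p-values adjusted by Benjamini and Hochberg over all genes tested. A gene was called higher or lower at an adjusted p below 0.05 in PPGLs against NAMs (all 29 samples) and below 0.1 in group 1 against group 2 (the 19 PPGLs).

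Marker genes differed between the groups and set some libraries apart. The 12 chromaffin markers summed to a median of 32439 CPM in NAMs, 34269 in group 1 and 49310.4 in group 2, with CHGB the most abundant in each. Tumors 3 and 5 of group 1 had TH at 10.5 and 2.15 CPM, and tumor 7 of group 1 had the lowest CHGB of all samples (26.6 CPM) and the lowest SCG2 (66.4 CPM) but for tumor 2 of group 1 (31.5 CPM). The adrenal cortex markers, of which 10 of 11 were found, summed to 12833, 33601 and 62034 CPM at the lowest, median and highest NAM, to 23.0, 205 and 1138 in group 1 and to 200.3, 3362 and 31302 in group 2. Tumor 10 of group 2 was the PPGL within the NAM range, CYP17A1 was the most abundant cortex gene in NAMs and group 2 and STAR in group 1, and MC2R, MRAP and NR0B1 had a median of 0 in group 1. Fibroblast markers summed to 24831 CPM in tumor 11 of group 2, against 285 to 679 in NAMs. Results were also computed without 5 tumors (3, 5 and 7 of group 1 and 10 and 11 of group 2), an alternative chosen after seeing the data; tumor 2 of group 1 was kept in it.

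Of the 76 channel genes, 57 passed the low-count filter in each comparison, 56 in both and 18 in neither. In PPGLs against NAMs, 19 of the 57 were called higher, where 22.3% of all 14766 genes tested were, and 6 were called lower, where 15.2% of all genes were; the counts by family below stand against these shares. At a log2 FC of at least 1 in size, 15 were higher and 5 lower, where 11% and 7.61% of all genes were. The median log2 FC was 0.40 over the channel genes and 0.13 over all genes, and 61.4% against 59.0% were positive. No channel gene separated all PPGLs from all NAMs, a pattern that 0.203% of all genes showed upward and 0.549% downward. Between the tumor groups, 2 channel genes were higher in group 1 and 1 was lower, where 3.97% and 2.95% of 14666 genes were, and 0 separated all samples of the groups, where 0.0341% of genes did so upward and 0.15% downward. Without the 5 tumors set apart above, 19 of the 55 channel genes tested were higher and 8 lower in PPGLs. Over all 14467 genes of that fit, 3414 were higher and 2603 lower. Of the 25 calls 24 were kept in it, ASIC3 being lost.

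**Figure D1:**
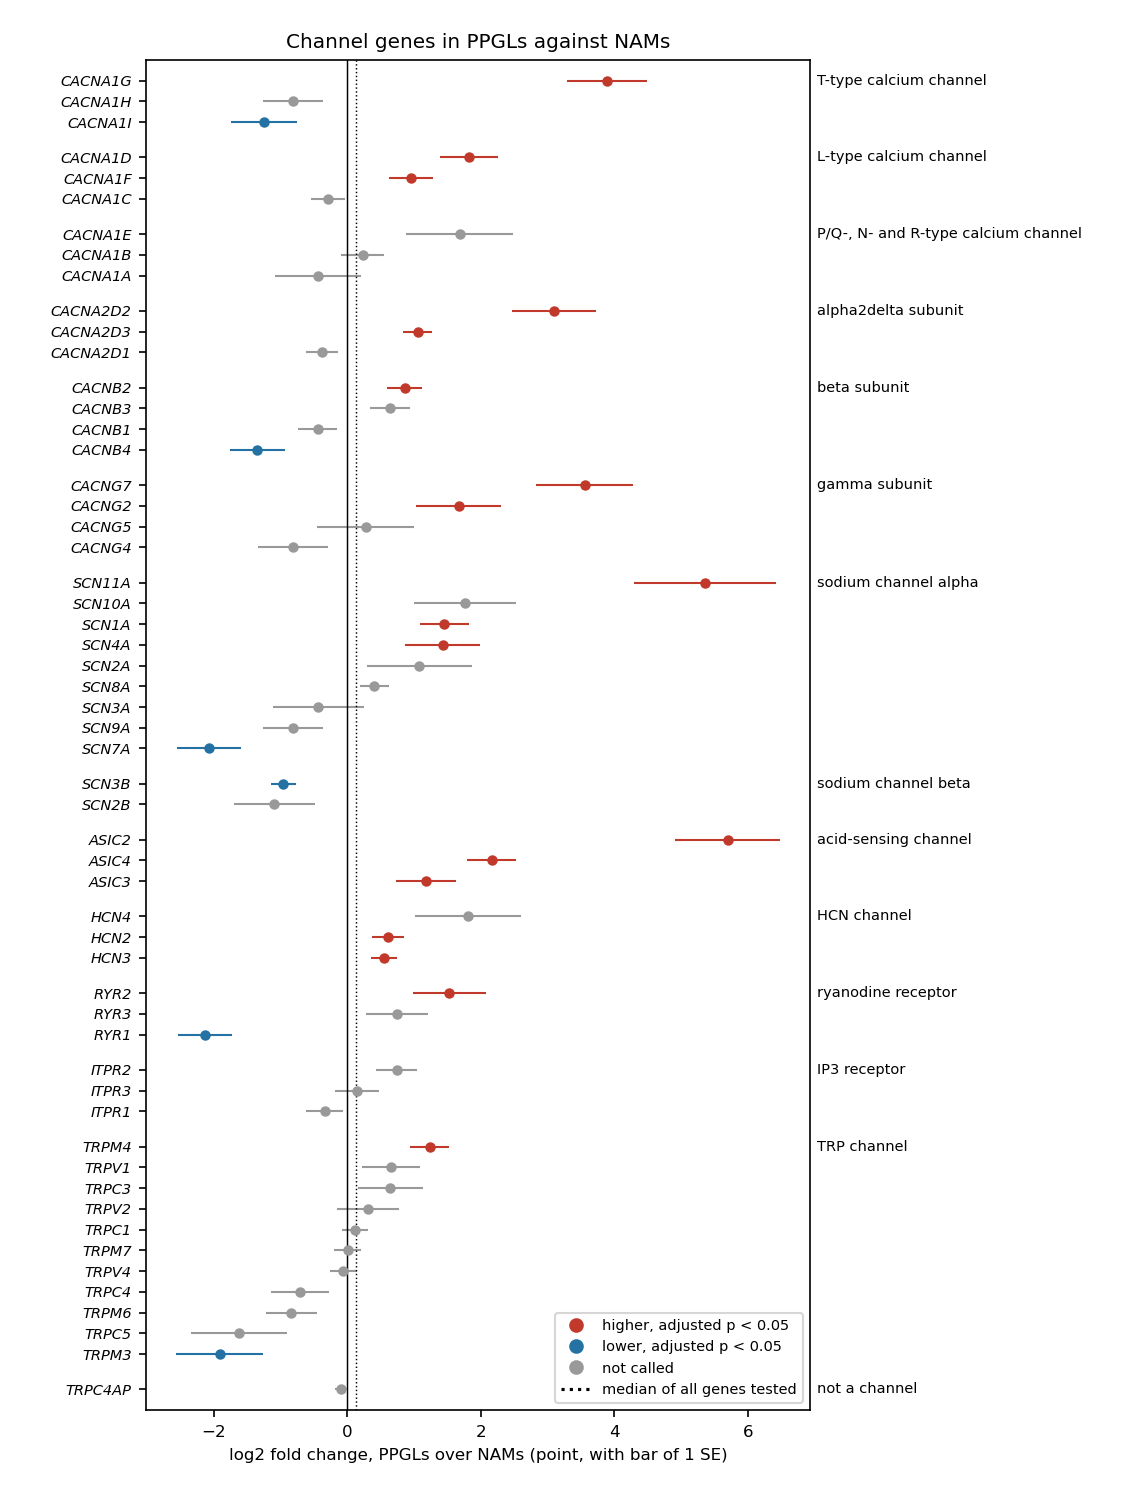
Log2 fold change of channel genes in PPGLs over NAMs (points, with a bar of 1 SE), ordered by family and colored by call; the dotted line is the median of all genes tested, 0.13. Calls in both directions occur in the T-type, beta subunit, sodium channel alpha, ryanodine receptor and TRP families. The P/Q-, N- and R-type and inositol trisphosphate receptor families hold no call. ASIC2 (5.70) and SCN11A (5.36) lie farthest to the right and RYR1 (-2.14) and SCN7A (-2.07) farthest to the left.

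Among the 3 pore subunits of T-type channels, which open at voltages near rest, 1 was higher in PPGLs, 1 lower and 1 not called. CACNA1G (alpha1G; chromosome 9 from 26481652 to 26544845 of CanFam3.1) measured at its lowest, median and highest 8.96, 14.4 and 50.4 CPM in NAMs, 0.651, 326 and 634 in group 1 and 80.5, 279 and 562 in group 2. It lay above every NAM in 17 of 19 PPGLs; of the others, tumor 7 of group 1 was inside the NAM range at 19.1 CPM and tumor 2 of group 1 below it. The difference was called (log2 FC 3.89 ± 0.60, adjusted p = 1.68e-05), and without the 5 tumors set apart the log2 FC was 3.86. CACNA1H (alpha1H; chromosome 6 from 39510121 to 39533753) measured 303, 396 and 697 CPM in NAMs, 0.691, 131 and 555 in group 1 and 83.3, 297 and 436 in group 2. No PPGL exceeded the NAM range and 12 fell under it, most deeply tumors 7 (0.691 CPM) and 6 (8.11 CPM) of group 1, but edgeR did not call it (log2 FC -0.81 ± 0.45, adjusted p = 0.158). A Mann-Whitney U-test on the same CPM called CACNA1H lower (adjusted p = 0.00981, range 0.00981 to 0.713 over 10 alternatives). CACNA1I (alpha1I) measured 10.8, 14.4 and 31.4 CPM in NAMs, 0.518, 1.61 and 22.6 in group 1 and 0.381, 6.59 and 22.1 in group 2. It was lower in PPGLs (log2 FC -1.25 ± 0.49, adjusted p = 0.0452), with 14 of 19 tumors under every NAM and 5 inside the NAM range.

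Per length of exon, CACNA1H made up 85.2, 91.2 and 95.97% of the summed CPM per kilobase of the 3 genes at the lowest, median and highest NAM, 2.31, 21.95 and 87.7% in group 1 and 22.8, 51.9 and 77.5% in group 2. CACNA1G made up 1.36, 3.81 and 11.2% in NAMs, 1.05, 75.1 and 97.5% in group 1 and 20.2, 47.6 and 76.5% in group 2, and was over 50% of the sum in 10 of 19 PPGLs and in 0 of 10 NAMs. The single tumor in which CACNA1G had as small a share as in NAMs was tumor 2 of group 1. The family sum had a median of 54.0 CPM per kilobase in NAMs, 42.3 in group 1 and 76.7 in group 2. Among NAMs, CACNA1H was highest in NAMs 6 and 8 (697 and 566 CPM), which had the highest sums of adrenal cortex markers (53247 and 62034 CPM). It was lowest in NAM 5 (303 CPM), which had the lowest such sum (12833 CPM). The part of cortex cells in the level of CACNA1H was not tested. In bulk samples such as these, fewer cells of a type and less RNA per cell cannot be told apart.

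**Figure D2:**
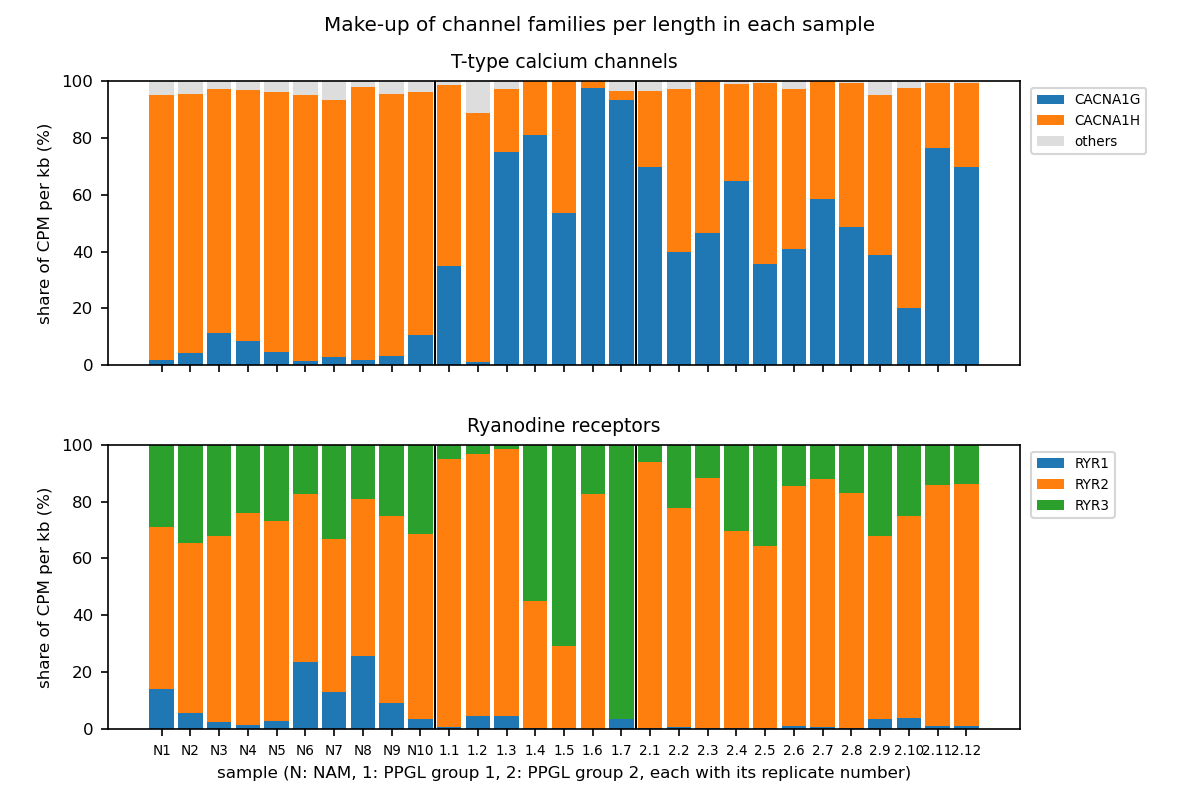
Share of each gene in the summed CPM per kilobase of its family (stacked bars, percent) in each of the 29 samples, for T-type calcium channels and ryanodine receptors. CACNA1H holds at least 85.2% of the T-type sum in every NAM, while CACNA1G reaches 97.5% in the PPGLs.

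L-type channels, which stay open long in depolarized cells, have 4 pore subunits in the table, and 3 were tested. CACNA1D (alpha1D; chromosome 20 from 36191810 to 36613686), which opens at less depolarized voltages than CACNA1C, measured 30.7, 42.9 and 104 CPM in NAMs, 1.21, 156 and 339.8 in group 1 and 53.9, 194 and 487 in group 2. All but 3 PPGLs lay above every NAM, 2 were inside the NAM range and tumor 2 of group 1 was far under it. CACNA1D was called higher (log2 FC 1.83 ± 0.44, adjusted p = 0.00169), in 17 of 19 tumors relative to the NAM median. CACNA1C (alpha1C), the cardiac and smooth muscle isoform, measured 25.9, 37.4 and 46.4 CPM in NAMs, 3.95, 20.4 and 56.2 in group 1 and 15.7, 33.6 and 60.7 in group 2. Its groups overlapped on both sides, with 4 PPGLs above and 9 below the NAM range, and it was not called (log2 FC -0.29 ± 0.26, adjusted p = 0.391). CACNA1F, known from the retina, stayed under 1.5 CPM in every sample and was called higher (log2 FC 0.95 ± 0.33, adjusted p = 0.0218), with 15 of 19 tumors above the NAM median; the skeletal muscle gene CACNA1S was not tested. CACNA1D accounted for 53.6% of the L-type CPM per kilobase at the median of NAMs, 85.9% in group 1 and 84.8% in group 2, and for over 50% in 18 of 19 PPGLs and 7 of 10 NAMs.

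The P/Q-, N- and R-type pores, which sit close to release sites for transmitter, gave 0 calls in PPGLs against NAMs by edgeR, with 1 of 3 at an unadjusted p below 0.05 and 1 called by DESeq2 (CACNA1E). CACNA1A (alpha1A, P/Q-type) measured 1.52, 2.29 and 4.11 CPM in NAMs, 0.0575, 0.513 and 3.71 in group 1 and 0.0421, 0.624 and 11.4 in group 2. Although 14 of 19 PPGLs lay under every NAM, tumors 5 and 9 of group 2 lay above them at 11.4 and 8.89 CPM, and the difference was not called (log2 FC -0.44 ± 0.64, adjusted p = 0.619). By the Mann-Whitney U-test CACNA1A was lower (adjusted p = 0.0255, range 0.0255 to 0.993 over 10 alternatives). CACNA1B (alpha1B, N-type; chromosome 9 from 47816393 to 48009406) measured 21.1, 34.0 and 68.5 CPM in NAMs, 32.3, 54.5 and 123.3 in group 1 and 5.16, 26.5 and 62.3 in group 2 and did not differ between PPGLs and NAMs by the test (log2 FC 0.23 ± 0.32, adjusted p = 0.599). It made up 91.2%, 93.3% and 94.5% of the CPM per kilobase of this family at the medians of NAMs, group 1 and group 2. CACNA1E (R-type) measured 0.822, 2.13 and 5.98 CPM in NAMs, 0.627, 6.61 and 45.8 in group 1 and 0.161, 1.09 and 23.6 in group 2. With 12 of 19 PPGLs under the NAM median, 8 of them under every NAM, and 5 above every NAM, led by tumors 5 and 3 of group 1 (45.8 and 29.5 CPM), it was not called by edgeR (log2 FC 1.68 ± 0.80, adjusted p = 0.0983). DESeq2 called it higher (adjusted p = 0.0367, range 0.0367 to 0.842 over 10 alternatives), and with a covariate for adrenal cortex markers its sign turned (-1.70, adjusted p = 0.170).

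**Figure D3:**
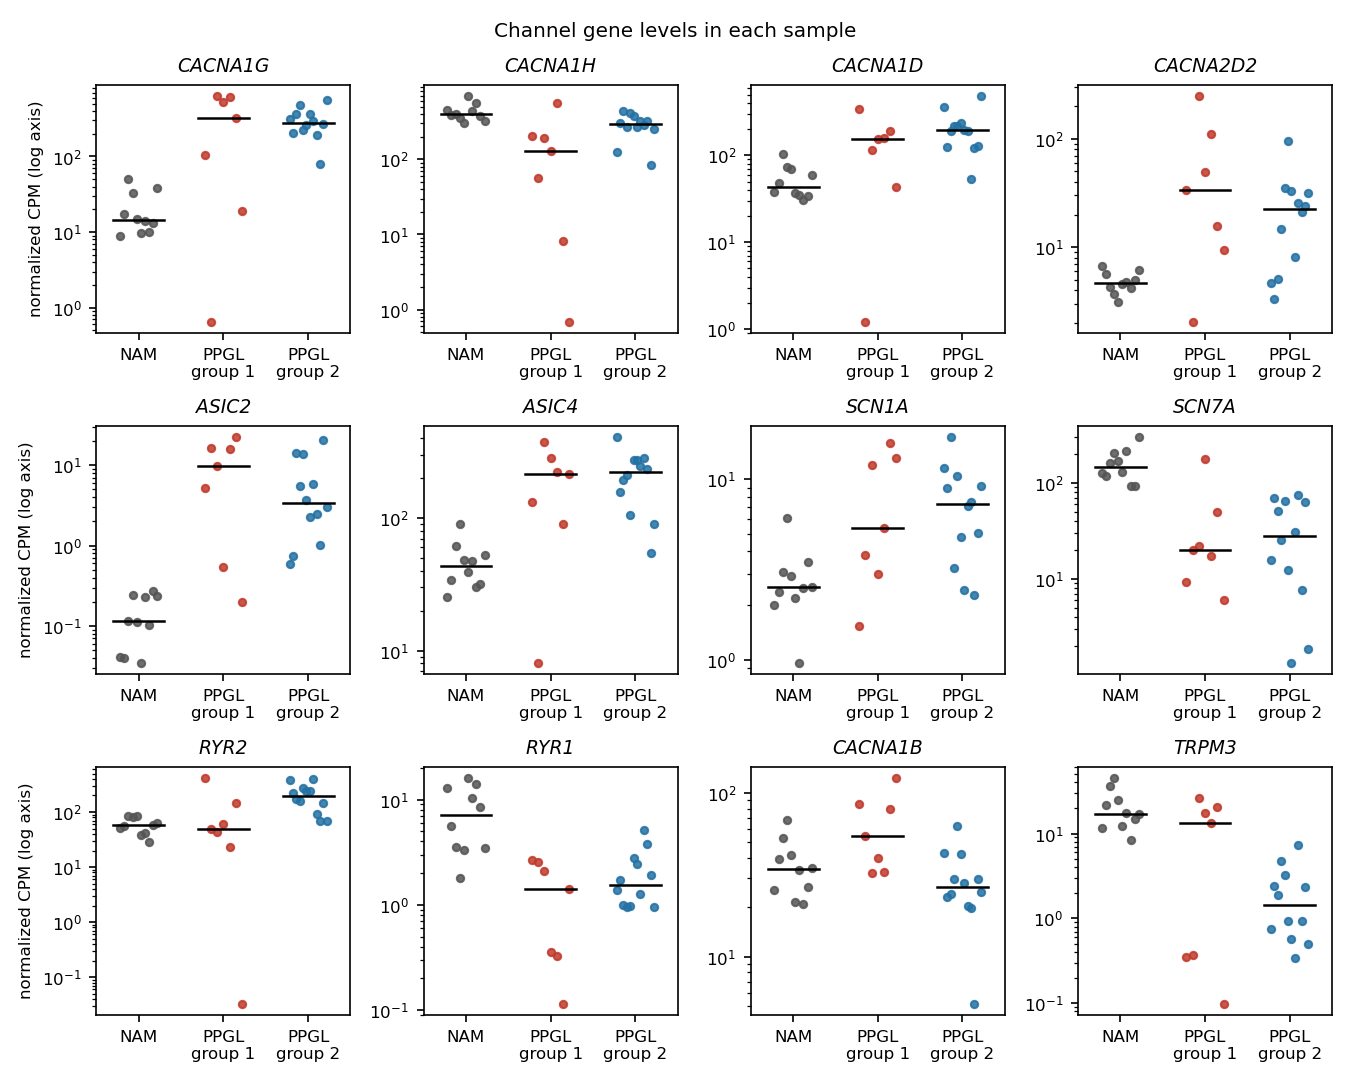
Normalized CPM of 12 channel genes in each sample (points, log axis) by group, with the median as a black line. CACNA1G, CACNA1D, ASIC2 and ASIC4 lie above the NAM range in 16 to 18 of 19 PPGLs, SCN7A lies under it in 18 and TRPM3 in 15.

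The alpha2delta subunits, extracellular partners that raise the number of calcium channels at the surface, were led per length by CACNA2D3, with median shares of 53.6% in NAMs, 63.3% in group 1 and 69.2% in group 2. CACNA2D2 measured 3.09, 4.69 and 6.74 CPM in NAMs, 2.05, 33.4 and 249.7 in group 1 and 3.33, 22.5 and 95.8 in group 2. It exceeded every NAM in 15 of 19 PPGLs, most in tumors 3 and 5 of group 1, at 249.7 and 111 CPM, while tumor 2 of group 1 fell under the NAMs and 3 tumors of group 2 were inside their range. CACNA2D2 was called higher (log2 FC 3.095 ± 0.63, adjusted p = 0.000398), also without the 5 tumors set apart (2.42, adjusted p = 0.000474, range 4.64e-08 to 0.136 over 10 alternatives) but not with a covariate for adrenal cortex markers (1.49, 0.136). CACNA2D3 was higher as well (log2 FC 1.05 ± 0.22, adjusted p = 0.000513), above every NAM in 12 tumors, and CACNA2D1 was not called (log2 FC -0.38 ± 0.23, adjusted p = 0.207).

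Beta subunits bind the pore inside the cell and take it to the membrane. CACNB4 measured 1.63, 5.87 and 14.98 CPM in NAMs, 0.173, 3.095 and 7.68 in group 1 and 0.394, 1.68 and 4.06 in group 2. Its levels in 9 of 19 PPGLs were under every NAM and the rest overlapped, and it was lower in PPGLs (log2 FC -1.35 ± 0.41, adjusted p = 0.0104). CACNB2 was higher (log2 FC 0.86 ± 0.26, adjusted p = 0.00983) in 17 of 19 tumors relative to the NAM median. CACNB3, the most abundant per length at medians of 43.5%, 60.5% and 47.4% of the beta sum in NAMs, group 1 and group 2, and CACNB1 were not called (log2 FC 0.64 ± 0.30, adjusted p = 0.0910 and log2 FC -0.44 ± 0.30, adjusted p = 0.247, in this order).

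The gamma series includes muscle calcium channel subunits and the proteins that escort glutamate receptors, and 4 of its 8 genes were tested. CACNG7 measured 0.534, 1.42 and 4.78 CPM in NAMs, 0, 24.1 and 45.8 in group 1 and 3.59, 18.3 and 39.9 in group 2. Its level passed the NAM range in 15 of 19 PPGLs, among them all of group 2 except tumor 10, while tumors 2, 4 and 6 of group 1 fell under every NAM. The call was higher (log2 FC 3.56 ± 0.73, adjusted p = 0.000398). CACNG2 measured 0.204, 1.90 and 3.61 CPM in NAMs, 0, 3.72 and 17.9 in group 1 and 0.126, 5.93 and 12.6 in group 2, with 12 PPGLs above and 2 below the NAM range, and was called higher (log2 FC 1.67 ± 0.64, adjusted p = 0.0404). CACNG5 measured 3.46, 6.03 and 27.7 CPM in NAMs, 0.0659, 17.3 and 69.6 in group 1 and 0.0845, 2.52 and 10.2 in group 2 and was not called in PPGLs against NAMs (log2 FC 0.28 ± 0.73, adjusted p = 0.795), nor was CACNG4 (log2 FC -0.81 ± 0.53, adjusted p = 0.233), which was called lower without the 5 tumors set apart (-1.37, adjusted p = 0.0139, range 0.0139 to 0.403 over 10 alternatives) and with a covariate for adrenal cortex markers (-2.28, 0.0282).

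Sodium channel pore subunits were called in both directions in PPGLs against NAMs. SCN11A (chromosome 23 from 8559952 to 8651500), a sensory neuron isoform, measured 0, 0.0806 and 0.383 CPM in NAMs, 0, 1.15 and 37.3 in group 1 and 0.297, 1.54 and 17.5 in group 2. Only 2 of 10 NAMs had over 3 counts, and 16 of 19 PPGLs lay above every NAM, with the highest level in tumor 5 of group 1. SCN11A was called higher (log2 FC 5.36 ± 1.06, adjusted p = 0.000271), a size that rests on few counts in NAMs, the highest of which was 10. Without the 5 tumors set apart the log2 FC was 4.79, and SCN11A was still called, but with a covariate for adrenal cortex markers it was 2.80 and not called (adjusted p = 0.0602, range 5.53e-10 to 0.0602 over 10 alternatives).

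SCN1A, a neuronal isoform, measured 0.960, 2.51 and 6.14 CPM in NAMs, 1.53, 5.38 and 16.0 in group 1 and 2.28, 7.30 and 17.2 in group 2. With 10 of 19 PPGLs above every NAM and none below them all, it was higher (log2 FC 1.46 ± 0.36, adjusted p = 0.00240). SCN4A, the skeletal muscle isoform, measured 0.542, 0.869 and 1.69 CPM in NAMs, 0.0465, 1.96 and 9.68 in group 1 and 0, 2.11 and 7.15 in group 2. Tumors fell on both sides of the NAM range, 13 above and 4 below, and SCN4A was called higher (log2 FC 1.43 ± 0.56, adjusted p = 0.0439). SCN7A, a sodium-sensing relative that does not open with voltage as the others do (chromosome 36 from 11482899 to 11561845), measured 93.4, 146 and 304 CPM in NAMs, 6.09, 20.1 and 177 in group 1 and 1.33, 28.1 and 75.2 in group 2. Tumor 4 of group 1 was the single PPGL inside the NAM range, and the other 18 lay below every NAM (log2 FC -2.07 ± 0.48, adjusted p = 0.00137).

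SCN9A, with SCN3A a main sodium channel of chromaffin cells, measured 56.8, 100.4 and 225 CPM in NAMs, 7.39, 34.3 and 311 in group 1 and 8.37, 43.8 and 194 in group 2. It lay under every NAM in 12 PPGLs and above them all in tumor 2 of group 1, and was not called by edgeR (log2 FC -0.81 ± 0.45, adjusted p = 0.156). The Mann-Whitney U-test on all samples called it lower (adjusted p = 0.0169, range 0.0169 to 0.323 over 10 alternatives), as did edgeR without that tumor (log2 FC -1.15, adjusted p = 0.0218, range 0.0218 to 0.279 with 1 library left out). SCN3A measured 23.3, 33.2 and 55.1 CPM in NAMs, 0.186, 31.3 and 164 in group 1 and 1.52, 3.68 and 88.0 in group 2. Its tumors were split, 12 under every NAM and 3 above, the highest in tumor 7 of group 1, and no call was made (log2 FC -0.43 ± 0.69, adjusted p = 0.649). SCN2A, SCN8A and SCN10A were not called, with log2 FC of 1.08 (adjusted p = 0.289), 0.40 (adjusted p = 0.141) and 1.76 (adjusted p = 0.0671). SCN10A was called higher by DESeq2 (adjusted p = 0.0360, range 0.0360 to 0.375 over 8 alternatives) and by edgeR without NAM 4 (0.0380), tumor 7 of group 1 (0.0490) or tumor 2 or 10 of group 2 (0.0474 and 0.0448). SCN2A turned sign with a covariate for adrenal cortex markers (-1.18, adjusted p = 0.436) and without the 5 tumors set apart (-0.25, adjusted p = 0.784, range 0.232 to 0.830 over 10 alternatives). Per length, SCN7A and SCN9A made up medians of 50.2% and 30.7% of the alpha sum in NAMs, 14.6% and 24.2% in group 1 and 16.53% and 22.7% in group 2. The alpha sum had medians of 51.9, 39.9 and 27.6 CPM per kilobase in NAMs, group 1 and group 2.

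Sodium channel beta subunits are single-pass proteins that tune gating and adhesion. SCN3B was the most abundant per length, with 53.1% of the beta sum at the NAM median, and lay under the NAM median in all 19 PPGLs; it was called lower (log2 FC -0.96 ± 0.19, adjusted p = 0.000231). SCN2B was not called (log2 FC -1.10 ± 0.61, adjusted p = 0.157), although 15 of 19 PPGLs were under every NAM, tumor 2 of group 1 being above them at 230.1 CPM. Without that tumor SCN2B was called lower (-1.93, adjusted p = 0.00179), as it was by the Mann-Whitney U-test on all samples (0.00630, range 0.00630 to 0.224 over 10 alternatives).

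Most members of the acid-sensing family are proton-gated sodium channels. Its 3 genes tested were called higher in PPGLs, where 22.3% of all genes were, but ASIC3 kept its call in only 5 of 10 alternatives. ASIC2 (chromosome 9 from 39082806 to 40083842) measured 0.0349, 0.114 and 0.271 CPM in NAMs, 0.198, 9.70 and 22.4 in group 1 and 0.590, 3.35 and 20.3 in group 2. Tumor 7 of group 1 was the one PPGL inside the NAM range and the other 18 lay above it. Its difference was the largest among the channel genes (log2 FC 5.70 ± 0.78, adjusted p = 3.75e-06), and in NAMs it rests on few counts, with 4 of 10 NAMs over 3 counts and the highest at 9. ASIC4 (chromosome 37 from 26024947 to 26048077), a relative that has not been shown to open to protons, measured 25.4, 43.2 and 90.0 CPM in NAMs, 8.09, 214 and 372 in group 1 and 54.9, 223 and 409.5 in group 2. It exceeded every NAM in 16 of 19 PPGLs, with tumor 6 of group 1 and tumor 11 of group 2 inside the range and tumor 2 of group 1 under it (log2 FC 2.16 ± 0.37, adjusted p = 5.71e-05). ASIC4 held 93.7%, 87.5% and 95.5% of the family's CPM per kilobase at the medians of NAMs, group 1 and group 2, and the family sum had medians of 9.93, 53.5 and 50.1. ASIC3 was also higher (log2 FC 1.18 ± 0.45, adjusted p = 0.0378), in 16 of 19 tumors relative to the NAM median, but without the 5 tumors set apart it was not called (0.79, adjusted p = 0.136, range 0.0176 to 0.831 over 10 alternatives). Its call was also lost without NAM 1, 2, 3, 5, 6, 7 or 8, tumor 2 or 7 of group 1, or tumor 9 of group 2, at an adjusted p of up to 0.0698. Of its exon bases 10.2% are shared with CDK5 on the other strand. ASIC1 had 0 counts in all 29 samples, but all 3796 of its exon bases (100%) are shared with an unnamed gene on the same strand that had 2057 counts, so its level cannot be read from this table.

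HCN channels carry an inward current at negative voltages. HCN2 measured 13.6, 18.2 and 23.1 CPM in NAMs, 8.19, 21.7 and 40.9 in group 1 and 10.5, 29.2 and 43.6 in group 2, overlapping between groups, with 12 PPGLs above and 4 below the NAM range, and was higher (log2 FC 0.61 ± 0.24, adjusted p = 0.0424). HCN3 was higher by a similar amount (log2 FC 0.55 ± 0.19, adjusted p = 0.0223), above the NAM median in 17 of 19 tumors, and missed the threshold without NAM 8 (adjusted p = 0.0511). With a covariate for adrenal cortex markers HCN3 was not called (log2 FC 0.26, adjusted p = 0.490). HCN4, the pacemaker isoform of the heart, was not called (log2 FC 1.80 ± 0.79, adjusted p = 0.0725) and peaked at 44.4 CPM in tumor 7 of group 1. It was called higher by DESeq2 (adjusted p = 0.0248, range 0.0248 to 0.964 over 10 alternatives) and by edgeR without NAM 4 (0.0497) or tumor 11 of group 2 (0.0437), while the cortex covariate gave a log2 FC of -0.0811 (adjusted p = 0.964).

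Ryanodine receptors release stored calcium in answer to calcium or to the voltage sensor of muscle. RYR2 (cardiac; chromosome 4 from 2373114 to 2907875) measured 29.1, 57.6 and 86.4 CPM in NAMs, 0.0329, 49.2 and 419 in group 1 and 68.4, 199 and 406 in group 2. In group 2, 10 of 12 tumors lay above every NAM and none below, while group 1 held both the highest PPGL, tumor 1, and the lowest, tumor 7 at 0.0329 CPM. RYR2 was called higher over all PPGLs (log2 FC 1.53 ± 0.55, adjusted p = 0.0271), and without the 5 tumors set apart the log2 FC was 1.84 (adjusted p = 0.000134, range 0.000134 to 0.139 over 10 alternatives). Leaving out NAM replicate 8 ended the call at an adjusted p of 0.0501, as did the Mann-Whitney U-test at 0.0512. RYR1 (skeletal; chromosome 1 from 114461348 to 114579493) measured 1.82, 7.07 and 16.1 CPM in NAMs, 0.115, 1.42 and 2.67 in group 1 and 0.949, 1.55 and 5.13 in group 2. All 19 PPGLs were under the NAM median and 11 under every NAM (log2 FC -2.14 ± 0.40, adjusted p = 0.000170). RYR3 was not called (log2 FC 0.75 ± 0.46, adjusted p = 0.204) and was the main ryanodine receptor per length in tumors 4, 5 and 7 of group 1. Median shares of the summed CPM per kilobase were 62.4% for RYR2 and 7.47% for RYR1 in NAMs, 82.7% and 0.582% in group 1 and 83.6% and 0.704% in group 2.

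The 3 inositol trisphosphate receptors gave 0 calls by edgeR in PPGLs against NAMs, with 1 at an unadjusted p below 0.05 and 1, ITPR2, called higher by DESeq2. ITPR2 measured 32.1, 48.2 and 60.9 CPM in NAMs, 8.99, 62.7 and 97.2 in group 1 and 19.0, 79.0 and 185 in group 2. The NAM range was passed upward by 11 PPGLs and downward by 2, among them tumor 7 of group 1, and ITPR2 missed the threshold (log2 FC 0.74 ± 0.30, adjusted p = 0.0546). It passed by DESeq2 (adjusted p = 0.0393), with scaling by library size alone (0.0438), without the 5 tumors set apart (0.85, 0.0128), and when any 1 of tumors 3 and 7 of group 1 and 2, 3, 9 and 10 of group 2 was left out, where the adjusted p came to as little as 0.0144 (0.0128 to 0.287 over 10 alternatives). ITPR1, the main isoform of neurons, measured 22.6, 36.4 and 58.5 CPM in NAMs, 10.3, 19.7 and 51.3 in group 1 and 5.46, 26.8 and 86.1 in group 2 and ITPR3 31.3, 43.4 and 81.1 CPM in NAMs, 12.9, 28.2 and 178 in group 1 and 15.2, 40.3 and 106 in group 2. Both overlapped between all groups and neither was called (log2 FC -0.34 ± 0.28, adjusted p = 0.359; log2 FC 0.15 ± 0.33, adjusted p = 0.761).

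Of 20 TRP channels, 11 were tested in PPGLs against NAMs, with 1 higher and 1 lower, smaller shares than the 22.3% and 15.2% of all genes. TRPM3, a calcium channel opened by steroids and heat, measured 8.45, 17.0 and 45.3 CPM in NAMs, 0.0988, 13.2 and 25.9 in group 1 and 0.339, 1.42 and 7.24 in group 2. It was under every NAM in 15 of 19 PPGLs and above the NAM range in 0, and tumors 3, 4, 5 and 6 of group 1 lay inside that range (log2 FC -1.91 ± 0.65, adjusted p = 0.0203). TRPM4, a sodium-passing channel opened by internal calcium, was higher (log2 FC 1.23 ± 0.29, adjusted p = 0.00152), above every NAM in 13 of 19. With a covariate for adrenal cortex markers TRPM4 was not called (log2 FC 0.70, adjusted p = 0.199). TRPM7, a channel joined to a kinase, measured 28.5, 42.9 and 50.05 CPM in NAMs, 19.5, 33.5 and 69.8 in group 1 and 18.4, 40.0 and 75.0 in group 2 and was not called (log2 FC 0.00 ± 0.20, adjusted p = 0.987). The fitted sign of TRPM7 was positive in the main fit and with library size alone. It was negative with DESeq2's size factors, without the low-count filter, in the fit of 3 groups and with the block. With 1 library left out it took both signs. The other TRP channels tested were not called, from TRPC5 (log2 FC -1.63 ± 0.72, adjusted p = 0.0733) to TRPV1 (log2 FC 0.66 ± 0.43, adjusted p = 0.238). TRPC5 was called lower by the Mann-Whitney U-test (adjusted p = 0.00783), with the cortex covariate (-3.85, 0.0104), in a fit of 3 groups (0.0367), without the 5 tumors set apart (-2.39, 0.00344) and without tumor 3 (0.0172) or 5 (0.0311) of group 1, with a range of 0.00344 to 0.0857 over 10 alternatives. TRPC4 was called lower by the Mann-Whitney U-test (0.0282, range 0.0282 to 0.955 over 10 alternatives) and without tumor 6 of group 1 (0.0114), and TRPM6 without tumor 7 of group 1 (0.0370). With the cortex covariate TRPC4 turned sign (0.0772, adjusted p = 0.955). TRPV2, not called in any fit of this comparison, turned sign with the cortex covariate (-1.17, adjusted p = 0.168) and without the 5 tumors (-0.0111, adjusted p = 0.987, range 0.168 to 0.987 over 10 alternatives). TRPC4AP, an adaptor protein, was not called (log2 FC -0.09 ± 0.09, adjusted p = 0.459).

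Among the genes tested in neither comparison were CACNA1S, CACNG1, CACNG3, CACNG6, CACNG8, ASIC1, ASIC5, SCN4B, TRPA1, TRPC7, TRPM1, TRPM5, TRPM8, TRPV3, TRPV5, TRPV6 and TRPC5OS. Of those listed, CACNG3 had the highest level, 6.93 CPM in tumor 2 of group 1. TRPA1 was at 0 in every NAM and reached 1.97 CPM in tumor 4 of group 1. The filter kept them out of the tests, which does not show that the genes are silent or alike between groups. Without the filter CACNG6 (5.33, adjusted p = 0.0178), CACNG8 (3.44, 0.0186), TRPA1 (4.52, 0.0256) and TRPC7 (2.32, 0.0459) were called higher in PPGLs and CACNG1 lower (-3.55, 0.00540), and between the groups TRPA1 was called higher in group 1 (5.83, 0.0601). These fold changes rest on few counts, and for TRPA1 44 of the 49 counts were in tumor 4 of group 1. TRPC6, tested only between the groups, was called higher in PPGLs without the filter (4.42, 0.000797) and in the fit of 3 groups (4.40, 0.000232). Its fold change also rests on few counts, since the highest NAM stood at 0.151 CPM, near the floor. The highest PPGLs were tumor 1 of group 1 at 9.89 CPM and tumor 9 of group 2 at 3.48 CPM.

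Ordered by level, as median CPM per kilobase of exon over 55 pore genes, CACNA1H came first in NAMs at 47.7, then SCN7A at 25.4, SCN9A at 14.7 and ASIC4 at 9.32. NAM libraries also carried adrenal cortex markers, summing to 12833 to 62034 CPM, so this order is that of whole samples and not of chromaffin cells alone. In PPGLs the order opened with ASIC4 at 46.2, CACNA1G at 36.8, CACNA1H at 32.1 and CACNA1D at 27.2, whose ranges over the tumors overlapped. By this level CACNA1G moved from place 22 in NAMs to 2 in PPGLs, while SCN7A moved from 2 to 17 and SCN9A from 3 to 12. RYR2 stood at place 16 in both NAMs and group 1 and at 5 in group 2, with medians of 3.90, 3.33 and 13.5 CPM per kilobase.

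Several of these genes lie close together in the genome, and the positions were compared after their values were seen. SCN10A and SCN11A lie side by side on chromosome 23 from 8420472 to 8651500, and SCN11A was higher in PPGLs while SCN10A was not called. SCN3A, SCN2A, SCN1A, SCN9A and SCN7A lie on chromosome 36 from 10302191 to 11561845, and of these SCN1A was higher, SCN7A lower and the rest were not called. A part of position in these differences was not tested.

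Between the tumor groups the authors drew, the question was which channel genes go with the split. CACNA1B was higher in group 1 (log2 FC 1.14 ± 0.34, adjusted p = 0.0692). All 7 tumors of group 1 lay above the group 2 median and 3 above every tumor of group 2, so the groups overlapped. CACNG5 was higher in group 1 (log2 FC 2.64 ± 0.83, adjusted p = 0.0846), with 5 of 7 tumors above the group 2 median, 4 above every group 2 tumor and tumor 7 of group 1 below them all. TRPM3 came near (log2 FC 2.36 ± 0.81, adjusted p = 0.109), since 4 tumors of group 1 lay above every group 2 tumor and the other 3 in or under the lower part of their range. Over the 57 genes the median log2 FC was 0.17, against 0.04 over all genes, and 12 had an unadjusted p below 0.05. No share of all genes at that unadjusted p is given here or beside the other unadjusted counts in this text. Such counts therefore do not set the channel genes or lists apart from other genes.

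The calls between the groups depended on single libraries to different degrees. CACNA1B was called in 14 of 19 fits with 1 tumor left out (adjusted p 0.0420 to 0.196) and missed the threshold without tumor 1, 6 or 7 of group 1 or tumor 4 or 8 of group 2. CACNG5 was called in 7 of 19 (adjusted p 0.0539 to 0.182), and missed it without tumor 3, 4 or 5 of group 1 or tumor 1, 2, 3, 4, 5, 6, 7, 11 or 12 of group 2. TRPM3 was called higher in 4 of 19, without tumor 1, 2 or 7 of group 1 or tumor 9 of group 2, at adjusted p down to 0.0697. The count of genes higher in group 1 was thus 0 without tumor 4 of group 2, by edgeR with 9 at an unadjusted p below 0.05 (DESeq2 on all tumors called 4), and 4 without tumor 9 of group 2, and the count lower was 2 without tumor 6 of group 1. Without the 5 tumors set apart, CACNA1B (1.05, adjusted p = 0.106) and CACNG5 (2.30, 0.172) were not called. Over 10 alternatives the adjusted p of CACNA1B ran from 0.0202 to 0.851 and of CACNG5 from 0.0165 to 0.734.

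In PPGLs against NAMs, the calls nearest the threshold changed most with the samples and the method. CACNA1I kept its call in 13 of 29 fits with 1 library left out (adjusted p 0.0193 to 0.0940), losing it without NAM 1, 2, 6, 7, 9 or 10, tumor 1, 2, 4 or 5 of group 1, or tumor 3, 4, 5, 8, 11 or 12 of group 2. CACNG2 kept its call in 16 (adjusted p 0.0155 to 0.0711), losing it without NAM 1, 2, 4, 6, 7, 8 or 9, tumor 1, 2 or 6 of group 1, or tumor 5, 6 or 9 of group 2. SCN4A kept its call in 15 (adjusted p 0.0155 to 0.0750), losing it without any NAM except 3 and 4, tumor 1, 4 or 5 of group 1, or tumor 1, 6 or 9 of group 2. HCN2 kept its call in 14 (adjusted p 0.0165 to 0.0786), losing it without NAM 1, 2, 5, 7, 8 or 9, tumor 3, 5 or 6 of group 1, or tumor 1, 2, 3, 4, 7 or 12 of group 2. With scaling by library size alone, CACNA1I was not called (-1.14, adjusted p = 0.0736, range 0.0121 to 0.606 over 10 alternatives). The Mann-Whitney U-test ended the calls of CACNG2 (0.0882, range 0.0111 to 0.213 over 10 alternatives), SCN4A (0.0809, range 0.0156 to 0.275 over 10 alternatives), HCN2 (0.123, range 0.0129 to 0.142 over 10 alternatives) and ASIC3. Without the low-count filter, where 24051 genes were tested in place of 14766, ASIC3, CACNA1F, CACNG2, SCN4A and HCN2 were not called, though their log2 FC (1.16, 0.93, 1.64, 1.41 and 0.59) were near those with it (1.18, 0.95, 1.67, 1.43 and 0.61).

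Adrenal cortex markers moved with both comparisons: 9 of the 10 found were lower in PPGLs than in NAMs and 9 were lower in group 1 than in group 2. With the mean log2 CPM of these markers as a covariate, 12 of the 25 calls of channel genes in PPGLs against NAMs were kept, among them CACNA1G (3.58, adjusted p = 0.00116, range 1.78e-14 to 0.00193 over 10 alternatives), ASIC2 (4.43, 0.00169, range 5.68e-19 to 0.00169 over 10 alternatives) and TRPM3 (-3.99, 0.00617, range 0.00211 to 0.0232 over 10 alternatives). The 13 not called with it included SCN7A (-2.06, adjusted p = 0.0846, range 9.28e-05 to 0.0846 over 10 alternatives), RYR1 (-1.63, 0.0762, range 1.40e-06 to 0.0762 over 10 alternatives), CACNA2D2 (1.49, 0.136), SCN11A and SCN1A (1.36, 0.0509, range 0.000153 to 0.0509 over 10 alternatives). CACNA1I moved to -0.59 (0.606), and CACNG2, SCN4A, HCN2, ASIC3, CACNA1F, HCN3 and TRPM4 were the remainder. Their log2 FC with the covariate were 1.54, 1.17, 0.70, 0.20, 1.16, 0.26 and 0.70 in this order, which for HCN2 and CACNA1F is more than without it (0.61 and 0.95). Over all genes tested, the covariate took the calls from 3295 to 1217 higher and from 2246 to 994 lower in PPGLs. The score averaged 9.17 ± 0.73 (SD, n = 10) in NAMs, 0.36 ± 1.51 (n = 7) in group 1 and 5.86 ± 1.88 (n = 12) in group 2. Of the PPGLs only tumor 10 of group 2 (9.10) lay within the NAM range of 8.10 to 10.3, so the covariate and diagnosis could hardly be separated. The tumor groups shared only scores between 2.16 and 2.91. Between the tumor groups that fit called 0 genes of all 14666 by edgeR, with 3 channel genes at an unadjusted p below 0.05; DESeq2 without the covariate called 4 channel genes higher and 2 lower. The part of cortex cells in these differences was not tested further.

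Other marker lists gave these counts in PPGLs against NAMs, where 22.3% of all genes were higher and 15.2% lower. Of 12 chromaffin markers 3 were higher (PHOX2A, HAND2 and SYP), a share near that of all genes, and PNMT was lower; of 8 endothelial markers 5 were lower, of 8 smooth muscle and pericyte markers 5 higher, and of 8 fibroblast markers 4 higher. Of 4 skeletal muscle markers tested CKM was lower, of 6 leukocyte markers CD3E and CD2 were higher and CSF1R lower, and of 8 neuron markers 3 were higher and 2 lower. The 7 Schwann and sustentacular markers tested gave 0 calls by edgeR, with 2 at an unadjusted p below 0.05 and 2 lower by DESeq2. Their sum over 8 markers nevertheless had medians of 109 CPM in NAMs, 32.4 in group 1 and 30.8 in group 2, with overlapping ranges. The highest sum, 251 CPM, was that of tumor 4 of group 1, the single PPGL with SCN7A inside the NAM range. The part of these cells in the level of SCN7A was not tested. RYR1 and SCN4A, known from skeletal muscle, differed in a tissue where the skeletal markers summed to medians of 81.0 CPM in NAMs, 96.5 in group 1 and 54.9 in group 2. ACTA1 was the most abundant of these in NAMs and MYH7 in both tumor groups. NAM 3 had the highest skeletal sum of the NAMs (146 CPM), with RYR1 at 3.56 CPM. RYR1 was highest in NAMs 6 and 8 (16.1 and 14.0 CPM), which had the highest cortex sums (53247 and 62034 CPM). It was lowest in NAMs 4 and 5 (1.82 and 3.35 CPM), which had the lowest (15712 and 12833 CPM). The parts of muscle and cortex cells were not tested. Between the groups HAND2 was higher in group 1, CNN1 and DES were lower, MYH7 was higher and CKM lower, and the endothelial, fibroblast, leukocyte, neuron and Schwann lists gave 0 calls by edgeR, with 1, 6, 1, 3 and 0 at an unadjusted p below 0.05 and 0, 1, 1, 0 and 0 called by DESeq2.

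The channels work beside proteins that refill stores, clear calcium or hold channels in place, and means over samples are given for some of them with their SD after the ± sign. Of 5 store-operated entry genes tested, the sensor STIM1 was higher (log2 FC 0.73, adjusted p = 0.00422; mean 131 ± 49.1 CPM against 80.1 ± 6.95) and the pore ORAI1 lower (log2 FC -0.66, adjusted p = 0.0227; mean 5.88 ± 2.22 CPM against 9.43 ± 3.04). Of 13 calcium pumps and exchangers 3 were higher and 2 lower, shares near those of all genes (22.3% and 15.2%). The surface pumps ATP2B2 (log2 FC 3.37, adjusted p = 7.53e-06; mean 22.1 ± 16.9 CPM against 2.16 ± 0.927) and ATP2B3 (log2 FC 1.27, adjusted p = 0.000690) and the sodium-calcium exchanger SLC8A3 (log2 FC 1.15, adjusted p = 0.00430) were higher, while the mitochondrial exchanger SLC8B1 (log2 FC -1.69, adjusted p = 5.98e-05) and the Golgi pump ATP2C2 (log2 FC -1.01, adjusted p = 0.0366) were lower. Of 10 store proteins and buffers JPH4, which joins surface and store membranes, was higher (log2 FC 3.30, adjusted p = 0.0425). Of 6 mitochondrial uniporter genes MICU2, its calcium gatekeeper, was lower (log2 FC -1.09, adjusted p = 0.000560), and of 3 lysosomal and polycystin channels TPCN1 was lower (log2 FC -1.12, adjusted p = 0.000287). The 5 sodium leak and epithelial sodium channel genes gave 0 calls by edgeR, with 2 at an unadjusted p below 0.05 and 0 by DESeq2.

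The counts in this paragraph are from short lists, where over all genes 22.3% were higher and 15.2% lower in PPGLs and 3.97% and 2.95% in group 1 against group 2. Among 9 regulators of calcium channels, 3 were higher in PPGLs, led by STAC (log2 FC 1.43, adjusted p = 0.00175; mean 122.9 ± 76.0 CPM against 46.4 ± 20.5), an adaptor of L-type channels, and REM1 (log2 FC 1.27, adjusted p = 0.0161), a small GTPase that holds them back, and RIMS2, which ties them to vesicles, was lower (log2 FC -0.70, adjusted p = 0.0418). Between the groups STAC2 (log2 FC -3.53, adjusted p = 0.00929; mean 6.33 ± 7.92 CPM against 73.9 ± 50.5) and GEM (log2 FC -2.39, adjusted p = 0.0764) were lower in group 1 and NCS1 was higher (log2 FC 0.96, adjusted p = 0.0867). Among 9 genes listed as regulators of sodium channels FGF13, which binds the tail of the pore, was higher in PPGLs (log2 FC 1.18, adjusted p = 0.0452) and, within them, in group 1 (log2 FC 2.05, adjusted p = 0.0112; mean 43.3 ± 32.9 CPM against 10.4 ± 5.38), while FGF11 (log2 FC -2.47, adjusted p = 0.000209; mean 3.53 ± 3.09 CPM against 19.9 ± 9.90) and FXYD1 (log2 FC -1.73, adjusted p = 0.00385), better known as a regulator of the sodium pump, were lower in PPGLs. Between the groups the lists of store-operated entry, pumps and exchangers, stores and buffers, the uniporter, sodium leak and lysosomal channels gave 0 calls by edgeR and by DESeq2, with 0, 1, 2, 0, 0 and 0 at an unadjusted p below 0.05.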

How the data were processed

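The raw exon count table deposited by the authors was used as given; FastQC, STAR, Picard and HTSeq on CanFam3.1 were named for its making, and the strand setting of counting is not given in the sources used here. Channel genes and gene lists were chosen with earlier results of these data known. Totals ran from 18208718 to 35918182 counts per sample, at which a floor of 3 counts lies between 0.0835 and 0.165 CPM. Levels are CPM with TMM factors from the whole table, and CPM per kilobase of exon between genes. R 4.3.3, edgeR 4.0.16, limma 3.58.1 and DESeq2 1.42.0 were used, with Python 3.11.15, numpy 2.4.6, pandas 2.3.3 and matplotlib 3.10.9. Genes were kept by filterByExpr (minimum count 10, minimum total 15) and tested with the edgeR quasi-likelihood F test, prior count 0.125, with Benjamini-Hochberg adjustment over all genes tested; the thresholds were 0.05 for PPGLs against NAMs and 0.1 for group 1 against group 2. SE is the absolute log2 FC divided by the square root of F. Full values were given for 29 genes, taken from those called in PPGLs against NAMs at a log2 FC of at least 1 in size (up to 12 in each direction), those called between the groups (up to 8 in each direction) and a set of pore-forming subunits whatever their result; others were singled out after their values were seen. Alternatives were DESeq2 size factors, library size alone, the DESeq2 Wald test, the Mann-Whitney U-test, no low-count filter, a filter at 1 CPM, a block on replicate number, a cortical score covariate, a fit of 3 groups and leaving out each library; a fit without 5 tumors set apart by their markers was added after seeing the data. Lists of adrenal cortex, chromaffin, Schwann, endothelial, smooth muscle, skeletal muscle, fibroblast, leukocyte and neuron markers, and of store-operated entry, pumps and exchangers, stores and buffers, the mitochondrial uniporter, calcium and sodium channel regulators, sodium leak and lysosomal channels were used. The code was tested on simulated data. Some genes are not reported here. Splicing, variants and protein levels were not analysed here.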

Additional observations from a re-analysis of the deposited data

Results flagged for a closer look

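Within NAMs and within group 1, each named gene was screened for a single value far from the rest by the gap to its nearest neighbor relative to the range on a log2 scale (Dixon's test), which chance alone meets in about 1 in 20 groups. Of 56 groups of values screened, 5 met it. RYR2 in tumor 7 of group 1 stood at 0.0329 CPM, where the nearest tumor had 23.0, and ITPR2 in the same tumor at 8.99 against 39.2. CACNA1D in tumor 2 of group 1 stood at 1.21 CPM against 42.7, and ASIC4 in the same tumor at 8.09 against 89.4. TRPM7 in NAM 3 stood at 28.5 CPM against 38.1. Group 2, with 12 tumors, was not screened this way. All 5 values were kept in every fit except where the library was left out, and their cause was not tested.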

How the results depend on the processing

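With the replicate numbers as a block, 12 channel genes were higher in PPGLs, and with the cortical score 9, against 19, while over all genes the count fell from 3295 to 2273 and 1217; by the Mann-Whitney U-test 12 were lower, against 6, and over all genes 2920 against 2246. The count higher in group 1 was 4 by DESeq2, 0 by the Mann-Whitney U-test, 4 without the low-count filter, 1 with the block, 0 with the cortical score, 7 in the fit of 3 groups and 0 without the 5 tumors set apart, against 2, and over all genes 916, 160, 637, 10, 0, 1405 and 170 in this order, against 582. The 1 gene higher with the block was TRPV2 (2.09, adjusted p = 0.0515), while CACNA1B and CACNG5 were not called with it. The count lower was 2, 0, 0, 2 and 2 by DESeq2, with the block, with the cortical score, in the fit of 3 groups and without the 5 tumors, against 1, and over all genes 877, 37, 0, 1162 and 187, against 433. With 1 tumor left out the counts ran from 0 to 4 higher and from 1 to 2 lower, and over all genes from 256 to 733 and from 269 to 485. Replicate numbers do not pair the samples, since every sample is from a different dog. By correlation, 4 of 27 samples were closest to a sample of their own number, and the count expected without pairing was not computed. The block is still among the 10 alternatives whose ranges are given. Every called gene with full values kept its direction under all alternatives, while some genes not called turned sign. Between the groups TRPC4, at 0.17 and not called, turned sign and was called lower by DESeq2 (-1.43, adjusted p = 0.0169, range 0.0169 to 0.958 over 10 alternatives) and without tumor 6 of group 1 (-1.62, adjusted p = 0.0385). In PPGLs against NAMs the block gave TRPV2 -0.16 and SCN2A -0.44, neither of them called. The block called TRPC5 (-2.70, adjusted p = 0.0129) and SCN2B (-1.92, adjusted p = 0.0295) lower in PPGLs. The cortical score also turned the signs of CACNB3 (-0.32), CACNA2D1 (0.17), CACNB1 (0.0221) and TRPC4 (0.0772), none of them called. Among genes with full values, in PPGLs against NAMs the cortical score gave ITPR3 -0.13, CACNG5 -2.21 and CACNA1B -0.90, the block gave CACNG5 -0.43, CACNA1B -0.0500 and TRPM7 -0.11, and TRPM7 was -0.0141 with DESeq2 size factors, -0.0140 by DESeq2, -0.0146 without the filter and -0.0188 in the fit of 3 groups. With 1 library left out, ITPR3 ran from -0.0584 to 0.26, CACNG5 from -0.18 to 0.60 and TRPM7 from -0.0547 to 0.0501. Between the groups, CACNG7 was 0.0109 with library size alone; the cortical score gave CACNA1I 1.36, CACNA1G -0.39, ASIC2 -0.45, CACNA2D2 -0.37, SCN11A -2.48 and SCN3A -0.87; the block gave CACNG2 -0.19, CACNA1G -0.94, ITPR1 0.26, SCN1A -0.25 and SCN9A -0.24; and leaving out the 5 tumors gave CACNA1G -0.44, ITPR1 0.61, CACNA2D2 -0.0285, SCN11A -0.0789, SCN3A -0.25 and SCN1A -0.43. With 1 tumor left out, CACNG7 ran from -0.45 to 0.11, CACNG2 from -0.26 to 0.45, SCN4A from -0.30 to 0.64, CACNA1G from -0.16 to 0.31, ITPR1 from -0.32 to 0.18, SCN11A from -0.14 to 2.08, ASIC4 from -0.42 to 0.0491, SCN1A from -0.21 to 0.26, SCN9A from -0.46 to 0.82 and SCN7A from -0.74 to 0.48. The cause of these changes was not tested. The NAMs and PPGLs differ in source and collection as well as diagnosis, and the tumor groups were drawn from these same samples, so these parts cannot be told apart. At these depths a gene of 3 counts lies between 0.0835 and 0.165 CPM by library size, and between 0.0801 and 0.173 CPM after TMM normalization. This limits the fold changes of genes that are near 0 in NAMs, such as ASIC2 and SCN11A.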
